A study of Mus musculus with 46 samples.

Results

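The genes described here carry and restrain the leukaemia inhibitory factor (LIF) signal. They are the receptor chains Lifr and Il6st, the kinases Jak1 and Jak2, the transcription factor Stat3, the feedback inhibitors Socs1 and Socs3, and the kinases Pim1 and Pim3. They were chosen by name in the array's gene annotation, with the probe set of highest mean taken for a gene with several, and all 9 were found among the 19938 genes measured. Expression was read on 46 whole-transcript arrays from 23 mouse lines in 8 groups, with 2 cultures of each line. Both cultures of a line were averaged, so n counts lines.

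GS lines (germline stem cells, the cultured spermatogonial stem cells of the testis; 3 lines) were the starting cells. The pluripotent groups were ES (embryonic stem cells; lines R1, B6-6 and BRC1), iPS (3 lines reprogrammed by retroviruses carrying c-myc, Klf4, Sox2 and Oct4), and mGS (multipotent germline stem cells, no treatment listed; 2 lines). The other 4 groups were GS-derived lines induced by separate routes, each with lentiviral knock-down of p53. Dnmt mGS also carried a Dnmt1 knock-down, Dmrt mGS a Dmrt1 knock-down, Sox2 mGS a lentivirally introduced Sox2 and Oct4 mGS a lentivirally introduced Oct4, with 3 lines each. Every line was 1 clone or line number. All lines except ES were of DBA/2 background with a GFP transgene, while ES R1 was a hybrid between 129 substrains, B6-6 was C57BL/6J and BRC1 came from a cross of B6, DBA2 and 129. The GS medium held 10 ng/ml GDNF, 10 ng/ml bFGF and 1% serum, with no LIF listed, whereas all pluripotent lines grew in 15% serum with 1000 U/ml LIF. Both kinds grew on mouse embryonic fibroblasts, which were reduced by plating on gelatin for 30 min before RNA was taken. Cell type and medium therefore cannot be told apart in any comparison with GS.

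LIF is a cytokine of the interleukin-6 family. It joins Lifr to gp130, the product of Il6st, and the Janus kinases bound to these chains phosphorylate STAT3, which enters the nucleus and activates genes such as Socs3, Pim1 and Pim3. SOCS proteins bind the receptors or kinases and damp the signal. In mouse ES cells this pathway sustains self-renewal, partly through Klf4, Tfcp2l1 and Gbx2. Arrays measure RNA, and STAT3 activity depends on phosphorylation, which they do not measure.

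STAT3 binds DNA at a palindrome of TTC and GAA separated by 3 bases, so the start regions of the genes were searched for TTCNNNGAA and for its stricter form TTCCNGGAA, every match of which is also a match of the looser form. Both strands were covered, since each form is its own reverse complement. The windows, from RefSeq on GRCm38.p6, ran from 250 bases before to 50 bases after each start. Among the 9 genes, which have 11 such windows, 1 gene held TTCNNNGAA and 0 held TTCCNGGAA; over all 27025 genes with such windows the shares were 9.55% and 1.35%. Shown first is the window before the start of Socs3 (chr11:117969367-117969616, minus strand), the only one of the 9 genes with a match, in capitals, 154 bases before the start. Stat3 (chr11:100939541-100939790, minus strand) and Jak1 (chr4:101265224-101265473, minus strand) are shown because they stood furthest from the pluripotent lines in GS, together with Jak2, and neither held a match. Bcl6 (1 of its windows, chr16:23981284-23981533, minus strand) is shown because it rose most in GS among the listed STAT3 targets. Its 3 matches, in capitals, lie 168, 122 and 88 bases before the start, and the first and last are also of the strict form. Another window of Bcl6 (chr16:23988853-23989102, minus strand), not shown, held 1 match, 118 bases before its start and not of the strict form.
Socs3: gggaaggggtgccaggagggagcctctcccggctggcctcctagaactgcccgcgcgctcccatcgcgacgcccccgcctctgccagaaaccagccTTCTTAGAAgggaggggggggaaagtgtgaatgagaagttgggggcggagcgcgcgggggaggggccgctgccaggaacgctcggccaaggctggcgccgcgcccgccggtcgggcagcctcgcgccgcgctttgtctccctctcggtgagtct
Stat3: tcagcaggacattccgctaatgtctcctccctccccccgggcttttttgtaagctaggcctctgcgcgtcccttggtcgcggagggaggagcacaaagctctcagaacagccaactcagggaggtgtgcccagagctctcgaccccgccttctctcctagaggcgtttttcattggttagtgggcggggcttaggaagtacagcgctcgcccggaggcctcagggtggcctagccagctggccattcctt
Jak1: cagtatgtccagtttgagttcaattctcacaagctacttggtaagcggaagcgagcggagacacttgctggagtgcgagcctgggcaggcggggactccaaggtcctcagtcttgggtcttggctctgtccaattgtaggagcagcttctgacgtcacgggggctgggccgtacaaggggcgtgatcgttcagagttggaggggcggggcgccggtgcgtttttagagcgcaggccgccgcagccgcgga
Bcl6: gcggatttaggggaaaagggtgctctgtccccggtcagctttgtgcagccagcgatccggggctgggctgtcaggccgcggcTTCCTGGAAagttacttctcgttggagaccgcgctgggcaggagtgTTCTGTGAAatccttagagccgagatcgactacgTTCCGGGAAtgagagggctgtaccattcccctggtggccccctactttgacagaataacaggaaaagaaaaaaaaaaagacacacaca
A match is a string of letters and does not show binding.

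The labels were checked against cell markers. A score of 10 pluripotency genes (mean of their log2 intensities, given as intensity) was 131 to 187 in the GS lines and 839 to 3817 in the pluripotent lines. Its group mean was 1244 in Sox2 mGS and 1595 in Oct4 mGS, against 2468 to 3259 in the other 5 pluripotent groups. A score of 9 germline genes was 2065 to 2752 in GS and 286 to 390 elsewhere. Of these 9 genes, 8 were higher and 1 was lower in GS against the mean of the 7 pluripotent groups (limma, adjusted p under 0.05). Of all genes 33.9% were higher and 21.5% lower. Testis somatic markers stayed between 130 and 215 in all lines, with 3 to 5 of 11 above the background level of 161, which is the 95th percentile of 1027 olfactory receptor genes. A score of 19 feeder and fibroblast genes averaged 1805 in Sox2 mGS (1487 to 2062) and 1170 in Oct4 mGS (775 to 1628). It averaged 366 in iPS (323 to 430), 453 in GS (301 to 900), 573 in mGS (338 to 972), 602 in Dnmt mGS (293 to 1439), 682 in Dmrt mGS (312 to 1095) and 789 in ES (402 to 1257). Of these 19 genes, 10 to 19 were above background in a line, so RNA of these genes was present to a different extent across lines. Whether it came from feeders or from other cells of the cultures was not tested. In such bulk samples fewer cells of a type and less RNA per cell cannot be told apart. Array medians ran from 215 to 242, apart from 265 on culture 1 of Oct4 mGS 1.

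The targeted genes were then read. Dnmt1 measured 620 and 647 in Dnmt mGS 1 and Dnmt mGS 3 but 2752 in the line labelled Dnmt mGS 2, against 1934 to 2772 in the pluripotent lines of the other groups. That line thus goes against its label, and the group comparisons are also given without it. It and Dmrt mGS 1 were close to each other in Dnmt1 (2752 and 2772) and Dmrt1 (220 and 191). Dmrt1 in Dmrt mGS (191 to 554) lay within the range of the other pluripotent lines (151 to 665), all below GS (3379 to 4220). Sox2 in Sox2 mGS (1253 to 1303) lay below all other pluripotent lines, the lowest of which measured 1689, and Pou5f1, the gene of Oct4, measured 4649 to 5248 in Oct4 mGS. Whether these probe sets read the introduced copies was not tested, and p53 was not analysed here. GS 1 stood apart in Sox2, at 1807 against 331 and 293 in the other GS lines, and in Pou5f1, at 1000 against 365 and 381.

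The kinases and Stat3 set GS apart from the pluripotent lines more than the receptors did. In GS against the equal-weighted mean of the 7 pluripotent groups, 5 of the 9 genes were higher (Jak1, Jak2, Stat3, Pim1 and Socs1), 2 were lower (Pim3 and Il6st) and 2 did not pass the test (Lifr and Socs3). Calls were made at an adjusted p under 0.05 in limma with Benjamini-Hochberg adjustment over all genes, and 55.3% of all genes were called in this comparison, 33.9% higher and 21.5% lower in GS. The median log2 difference was 0.44 over the 9 genes and 0.10 over all genes. All 9 genes were above the background level in all 23 lines. The same 7 were called without the line labelled Dnmt mGS 2, where 11009 of all 19938 genes were called. Their differences were then 1.58 for Jak1, 1.19 for Jak2, 1.02 for Stat3, 0.83 for Pim1, 0.43 for Socs1, -0.30 for Il6st and -0.63 for Pim3.

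**Figure D1:**
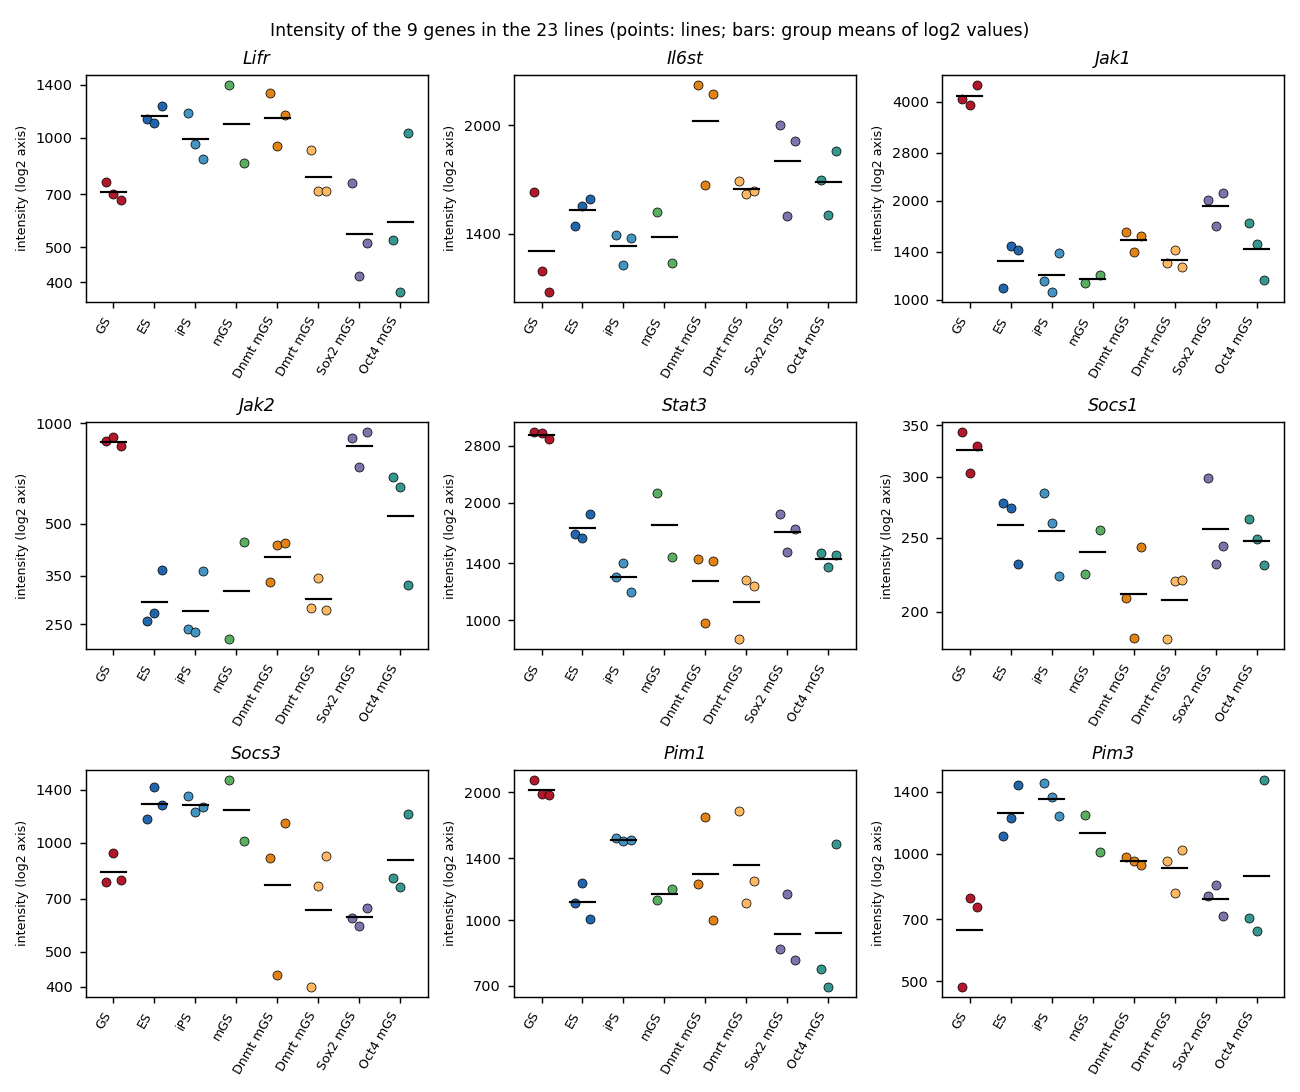
Intensity (log2 axis) of the 9 genes in each of the 23 lines, by group; each point is a line and each bar is the group's mean of log2 values. The GS points stand above every other line for Jak1, Stat3, Pim1 and Socs1, and the Sox2 mGS points reach the GS level for Jak2.

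The receptors were at similar or lower levels in GS. Lifr, the LIF-binding chain, measured 756, 702 and 674 in the GS lines. It ran from 377 (Oct4 mGS 2) to 1399 (mGS 1) in the pluripotent lines, with a median of 940. The GS lines lay inside that range. They differed from the pluripotent mean by -0.28 ± 0.21 (log2 ± SE), which did not pass the test (adjusted p = 0.28). The group means ran from 1151 in ES, 1133 in Dnmt mGS, 1091 in mGS and 994 in iPS through 778 in Dmrt mGS and 710 in GS to 588 in Oct4 mGS and 544 in Sox2 mGS, and lines overlapped between all 7 pairs of neighbours in that order. Against ES, Lifr in GS was 1.62-fold lower with no overlap of lines and an adjusted p of 0.055.

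Il6st, whose product is the signalling chain shared by the receptors of this cytokine family, measured 1608, 1241 and 1159 in the GS lines. The pluripotent lines ran from 1263 (iPS 2) to 2284 (Dnmt mGS 1), so GS 1 lay inside their range and GS 2 and GS 3 below it. GS was 1.21-fold lower (-0.28 ± 0.11, adjusted p = 0.033). The call was lost without GS 2 (-0.23, adjusted p = 0.16) or GS 3 (-0.18, adjusted p = 0.25), and with the feeder score as a covariate (-0.22, adjusted p = 0.098). It was also lost after quantile normalization (adjusted p = 0.054) and without Sox2 mGS and Oct4 mGS (-0.24, adjusted p = 0.065). The highest group mean was 2027 in Dnmt mGS, whose lines measured 2284, 1645 and 2217, followed by 1780 in Sox2 mGS. ES (1513), mGS (1385), iPS (1346) and GS (1322) were the 4 lowest.

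Jak1, the kinase needed for most gp130 signalling, was the gene furthest from the pluripotent lines. It measured 4074, 3917 and 4503 in GS. The pluripotent lines lay between 1058 (iPS 2) and 2111 (Sox2 mGS 3), with no overlap. GS was 3.00-fold higher (1.58 ± 0.11, adjusted p = 8.7e-10). The feeder score was 900 in GS 1, 343 in GS 2 and 301 in GS 3, and the difference in Jak1 was 1.67 with that score as a covariate. The part of feeder RNA in the difference was not tested beyond the covariate. Among the pluripotent groups Sox2 mGS was highest, at 2010, 1676 and 2111, and did not overlap the Dnmt mGS lines next in order (1604, 1399 and 1560). The lower neighbours, Oct4 mGS (1429), Dmrt mGS (1321), ES (1308), iPS (1185) and mGS (1153), overlapped in their lines.

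Jak2, the related kinase, measured 884, 909 and 856 in GS. Sox2 mGS measured 904, 743 and 940, and the groups overlapped. Oct4 mGS 1 and Oct4 mGS 2 followed at 692 and 644, and all other pluripotent lines lay between 226 (mGS 1) and 441 (mGS 2). GS was 2.27-fold above the mean of the pluripotent groups (1.18 ± 0.20, adjusted p = 6.7e-05). Against Sox2 mGS the difference was 0.04 ± 0.26, with a 95% interval from -0.51 to 0.60. Jak2 had the largest spread of group means among the pluripotent groups, 1.64 on the log2 scale from iPS to Sox2 mGS.

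Stat3 measured 3031, 3013 and 2913 in GS, close together. The pluripotent lines ran from 896 (Dmrt mGS 1) to 2126 (mGS 1), with a median of 1442, and none reached the GS lines. GS was 2.06-fold higher (1.04 ± 0.12, adjusted p = 7.7e-07). Below GS came mGS (1757), ES (1720) and Sox2 mGS (1687), whose lines overlapped, and then Oct4 mGS (1440), iPS (1290), Dnmt mGS (1261) and Dmrt mGS (1116), whose lines overlapped in turn. Sox2 mGS and Oct4 mGS, neighbours between those runs, did not overlap.

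The inhibitors did not move together. Socs1, which binds and inhibits Janus kinases, measured 343, 304 and 329 in GS and between 184 (Dmrt mGS 1) and 299 (Sox2 mGS 1) in the pluripotent lines. The groups did not overlap, by a small margin. GS was 1.36-fold higher (0.44 ± 0.10, adjusted p = 6.8e-04). Socs3, which is induced by STAT3 and binds gp130, measured 778, 935 and 788 in GS. It ran from 400 (Dmrt mGS 1) to 1489 (mGS 1) in the pluripotent lines, and the GS lines lay in the middle. The difference was -0.15 ± 0.23, with a 95% interval from -0.63 to 0.34 (adjusted p = 0.61). ES (1279), iPS (1268) and mGS (1227) had the highest means, 1.48 to 1.54 times that of GS. None of these 3 differences passed the test (adjusted p = 0.11, 0.098 and 0.19), although the lines did not overlap. When the line labelled Dnmt mGS 2 was left out, Socs3 was called lower in GS against ES (-0.62, adjusted p = 0.044) and iPS (-0.61, adjusted p = 0.040), but not against mGS (-0.56, adjusted p = 0.10). Another probe set of Socs3 read 255 in GS and 242 in the pluripotent groups on average and was not used.

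Pim1 and Pim3, serine/threonine kinases that act in growth and survival and that STAT3 can induce, went opposite ways. Pim1 measured 2140, 1978 and 1968 in GS. The pluripotent lines ran from 697 (Oct4 mGS 2) to 1810 (Dmrt mGS 1), below all GS lines. GS was 1.74-fold higher (0.80 ± 0.19, adjusted p = 0.0015). The iPS lines lay within 1534 to 1562, the tightest group, while Oct4 mGS spanned 697 to 1508. Pim3 measured 485, 787 and 749 in GS and 658 (Oct4 mGS 2) to 1494 (Oct4 mGS 3) in the pluripotent lines. GS 1 lay below every pluripotent line and GS 2 and GS 3 lay among the lowest. GS was 1.55-fold lower (-0.63 ± 0.18, adjusted p = 0.0060), and without GS 1 the difference was -0.41 (adjusted p = 0.086).

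Setting GS against each pluripotent group in turn, 7 comparisons that share the same GS lines, gave 6 called genes of 9 against ES (43.2% of all genes called), 5 against iPS (54.0%), 6 against mGS (43.1%), 6 against Dnmt mGS (49.1%), 4 against Dmrt mGS (41.6%), 5 against Sox2 mGS (44.0%) and 5 against Oct4 mGS (42.9%). The counts without the line labelled Dnmt mGS 2 were 7 against ES, 6 against iPS, 5 against Dmrt mGS and 6 against Oct4 mGS, and the other 3 were as before. Of all 19938 genes, 8602 were then called against ES, 10718 against iPS, 8322 against Dmrt mGS and 8559 against Oct4 mGS. In the other 3 these calls were 8514 against mGS, 8738 against Dnmt mGS and 8799 against Sox2 mGS. The median log2 difference over all genes was 0.04 to 0.17 in these comparisons. With each array centred on its median, Socs1 lost its calls against ES (0.30, adjusted p = 0.051) and iPS (0.29, adjusted p = 0.054). Jak1, Stat3 and Socs1 were called higher in GS in all 7. The difference in Jak1 ran from 1.11 ± 0.14 against Sox2 mGS to 1.85 ± 0.16 against mGS. Stat3 ran from 0.77 ± 0.18 against mGS to 1.42 ± 0.16 against Dmrt mGS. Against Dnmt mGS without its line labelled 2, Jak1 was 1.39, Stat3 1.06 and Socs1 0.53, and all 3 were called, as was Jak2. The call of Stat3 against mGS, which has 2 lines, was lost without mGS 2 (0.49, adjusted p = 0.083). Socs1 ran from 0.32 ± 0.13 against ES (adjusted p = 0.047) to 0.65 ± 0.13 against Dmrt mGS. The call against ES was lost without any of 13 single lines (0.24 to 0.37, adjusted p = 0.050 to 0.18), with the lowest value without BRC1. The call against iPS was lost without iPS 5, GS 1 or GS 3 (0.25 to 0.34), and that against mGS without mGS 1 (0.35, adjusted p = 0.14). Against Sox2 mGS it was lost without GS 1, GS 3, Sox2 mGS 2 or Sox2 mGS 3 (0.27 to 0.33), and against Oct4 mGS without GS 1 or Oct4 mGS 3 (0.34 and 0.35).

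**Figure D2:**
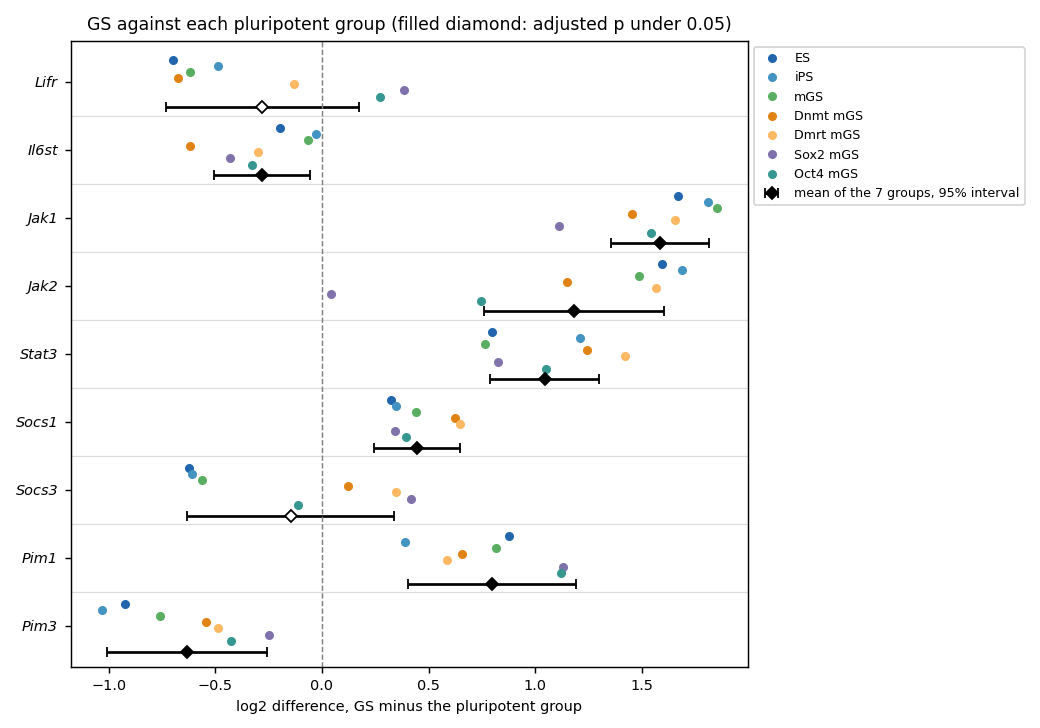
Log2 difference of GS from each of the 7 pluripotent groups (coloured points) and from their mean (diamonds with 95% intervals, filled where the adjusted p was under 0.05). Jak1, Stat3 and Socs1 lie right of 0 against every group, and Jak2 lies at 0.04 against Sox2 mGS.

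Jak2 was called higher in GS in 6 of the 7, all but Sox2 mGS, from 0.75 ± 0.26 against Oct4 mGS to 1.69 ± 0.26 against iPS. The call against Oct4 mGS was lost without Oct4 mGS 3 (0.40, adjusted p = 0.19) and without any 1 of the GS lines. Pim1 was called higher against ES (0.88), mGS (0.82), Dnmt mGS (0.66), Sox2 mGS (1.13) and Oct4 mGS (1.12), but not against iPS (0.39 ± 0.25, adjusted p = 0.19) or Dmrt mGS (0.59 ± 0.25, adjusted p = 0.066). The latter was called under 6 of 35 alternatives, among them without the line labelled Dnmt mGS 2 (adjusted p = 0.0497). Its call against mGS was lost without mGS 1, mGS 2 or GS 1 (0.77 to 0.86), and that against Dnmt mGS without any GS line, Dnmt mGS 1 or Dnmt mGS 3 (0.47 to 0.68). Without the line labelled Dnmt mGS 2 it was 0.88 (adjusted p = 0.011). Against Sox2 mGS, Pim1 lost its call with the feeder score as a covariate (0.67, adjusted p = 0.059). Pim3 was called lower against ES (-0.92), iPS (-1.03) and mGS (-0.76) and against none of the 4 induced routes, where it lay between -0.54 and -0.25. The call against mGS was lost without mGS 1, mGS 2 or GS 1 (-0.90 to -0.54). Il6st was called lower against Dnmt mGS (-0.62 ± 0.14, adjusted p = 0.0014) and Sox2 mGS (-0.43 ± 0.14, adjusted p = 0.018). Without the line labelled Dnmt mGS 2 the first was -0.77 (adjusted p = 2.6e-04), and the count against Dnmt mGS remained 6. The call against Sox2 mGS was lost with the feeder score as a covariate (-0.27, adjusted p = 0.25) and without GS 2, GS 3, Sox2 mGS 1 or Sox2 mGS 3 (-0.38 to -0.33). Against Oct4 mGS, Il6st was called without the line labelled Dnmt mGS 2 (-0.33, adjusted p = 0.041).

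Among the pluripotent lines themselves, 6 of the 9 genes differed between the 7 groups by limma's F-test (Jak2, Jak1, Lifr, Stat3, Socs3 and Il6st, adjusted p from 0.0019 to 0.039), where 29.4% of all genes did. Socs1, Pim1 and Pim3 did not pass (adjusted p = 0.15, 0.13 and 0.095). With the feeder score as a covariate 3 of the 9 were called (Jak2, Socs3 and Stat3). The share of all genes called in that fit is not given here. Without Sox2 mGS and Oct4 mGS, the groups with the highest feeder and lowest pluripotency scores, 0 of 9 were called by limma and 5 had an unadjusted p under 0.05. The share of all genes at that unadjusted p is not given here. Calls over all genes fell as well, from 5862 with all 7 groups to 1116. Leaving out Sox2 mGS 3 alone left 2 called genes (Jak2 and Stat3), with the share of all genes not given here. Leaving out the line labelled Dnmt mGS 2 left the same 6, with 4829 of all genes called.

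**Figure D3:**
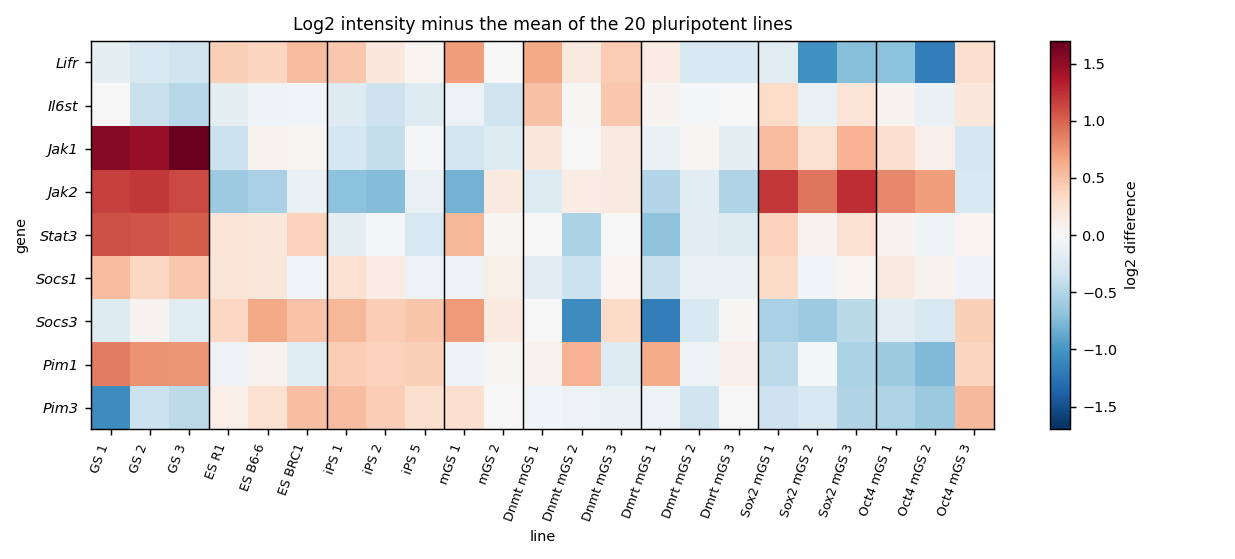
Log2 intensity of each gene in each line, minus that gene's mean over the 20 pluripotent lines (red higher, blue lower; vertical lines separate groups). Jak1, Jak2, Stat3, Socs1 and Pim1 are red in the 3 GS lines, Jak2 is red in Sox2 mGS, and Socs3 is deepest blue in the line labelled Dnmt mGS 2 and in Dmrt mGS 1.

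Between the reference pluripotent cells, iPS and ES, 0 of the 9 genes were called by limma (0.627% of all genes). Over all 19938 genes, 2576 had an unadjusted p under 0.05, and of the 9 genes 1 did. That gene was Stat3, at 1293, 1405 and 1183 in iPS and 1665, 1630 and 1876 in ES. The groups did not overlap, and the difference was -0.41 ± 0.16, with a 95% interval from -0.75 to -0.08 (adjusted p = 0.28). When all 46 arrays were taken as independent samples 2 genes were called, and with the line as a random block 1 was. The 2 cultures of a line are not independent (consensus correlation 0.65), so the first count overstates the sample size. Shares of all genes are not given for these 2 fits. For the other genes the 95% intervals reached from -0.80 (Lifr) to 1.00 (Pim1), and the narrowest was that of Socs1, from -0.29 to 0.24.

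The 4 induced routes were then set against ES, iPS and mGS together, which carried no p53 knock-down. Of the 9 genes 3 were higher (Jak2, Jak1 and Il6st) and 3 lower (Socs3, Lifr and Pim3) in the induced lines, where 23.2% of all genes were called, 15.0% higher and 8.20% lower. The same 6 were called without the line labelled Dnmt mGS 2, where 4403 of all 19938 genes were called. Each of these 6 genes overlapped between the groups of lines. Jak2 was 1.64-fold higher (0.71 ± 0.15, adjusted p = 0.0029), Jak1 1.26-fold (0.34 ± 0.08, adjusted p = 0.0069) and Il6st 1.25-fold (0.32 ± 0.08, adjusted p = 0.0080). Without Sox2 mGS and Oct4 mGS, the calls of Jak2 (0.23, adjusted p = 0.35) and Jak1 (0.22, adjusted p = 0.085) were lost, and that of Il6st was kept (0.36, adjusted p = 0.018).

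Of the 9 genes, Socs3 in the induced lines lay furthest below its level in ES, iPS and mGS. In GS, the starting cells, it measured 778, 935 and 788. The limma test of GS against each induced route did not call it (adjusted p = 0.29 to 0.80). The Dnmt mGS lines measured 906, 431 and 1136, and the Dmrt mGS lines 400, 757 and 920. Values of 618, 588 and 659 were read in Sox2 mGS. The Oct4 mGS lines gave 797, 754 and 1201. In ES it measured 1161, 1420 and 1270, in iPS 1342, 1212 and 1254, and in mGS 1489 and 1011. Among the 12 induced lines, 10 lay below the lowest of the 8 other pluripotent lines, and Dnmt mGS 3 and Oct4 mGS 3 lay above it. The induced lines were 1.73-fold lower (-0.79 ± 0.17, adjusted p = 0.0036). The difference was -0.96 (adjusted p = 0.0015) with the feeder score as a covariate and -0.83 (adjusted p = 0.022) without Sox2 mGS and Oct4 mGS, and -0.69 (adjusted p = 0.0028) without the line labelled Dnmt mGS 2. Lifr was 1.48-fold lower (-0.56 ± 0.16, adjusted p = 0.017) and Pim3 1.39-fold lower (-0.48 ± 0.13, adjusted p = 0.016). Both lost their call with the feeder score as a covariate (adjusted p = 0.063 and 0.074) or without mGS 1 (adjusted p = 0.090 and 0.064), and Lifr also without Sox2 mGS and Oct4 mGS (-0.20, adjusted p = 0.30). Stat3 was -0.21 ± 0.09 (adjusted p = 0.096). It was called lower without Sox2 mGS and Oct4 mGS (-0.41, adjusted p = 0.030), with the feeder score as a covariate (-0.28, adjusted p = 0.045), without mGS 2 (-0.30, adjusted p = 0.030) and with each array centred on its median (-0.27, adjusted p = 0.038). Knock-down of p53 and derivation by an induced route cannot be told apart here.

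The routes were also compared with each other, each against the equal-weighted mean of the other 3. Sox2 mGS had higher Jak2 (2.16-fold, 1.11 ± 0.22, adjusted p = 0.0035), Jak1 (1.35-fold, 0.44 ± 0.12, adjusted p = 0.020) and Stat3 (1.33-fold, 0.41 ± 0.13, adjusted p = 0.041), so that 3 of the 9 genes were called, against 14.2% of all genes (5.99% higher and 8.16% lower). The Jak2 lines of Sox2 mGS (743 to 940) did not overlap the other induced lines (276 to 692). Its feeder scores (1487 to 2062) were also above those of most other induced lines (293 to 1628). With the feeder score as a covariate Jak2 remained called (0.83, adjusted p = 0.036), while Jak1 (0.30, adjusted p = 0.18) and Stat3 (0.31, adjusted p = 0.25) did not. Without Sox2 mGS 1 or Sox2 mGS 3, the call of Jak1 was lost (adjusted p = 0.084 and 0.15). That of Stat3 was lost without any of 9 single lines (0.34 to 0.50, adjusted p = 0.051 to 0.18), among them each Sox2 mGS line. After the line labelled Dnmt mGS 2 was left out, Jak2 (1.13, adjusted p = 0.0054) and Jak1 (0.42, adjusted p = 0.033) were called and Stat3 was not (0.36, adjusted p = 0.054). In that fit 2424 of all 19938 genes were called.

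Dnmt mGS had higher Lifr than the other routes (1328, 951 and 1152 against 377 to 1030 in the other 9 lines; 1.80-fold, 0.85 ± 0.23, adjusted p = 0.020). The line labelled Dnmt mGS 2 lay inside the range of the other routes. This was 1 of 9 genes called, against 19.2% of all genes (8.85% higher and 10.4% lower). Without that line 2 were called by limma, Lifr (0.98, adjusted p = 0.039) and Il6st (0.42, adjusted p = 0.044). Of all 19938 genes, 1488 were then called, against 3830 with it. The call was lost without Dnmt mGS 1 (0.74, adjusted p = 0.13), with the feeder score as a covariate (0.74, adjusted p = 0.066) or when only the groups compared entered the fit (adjusted p = 0.067). For Dmrt mGS, limma called 0 of 9 genes (0.316% of all genes). An unadjusted p under 0.05 was found for 2058 of all 19938 genes and for 3 of the 9. The largest of these was Jak2 (343, 280 and 276; -0.92 ± 0.22, adjusted p = 0.076). For Oct4 mGS, 0 of 9 were called (1.06% of all genes), and 0 had an unadjusted p under 0.05, beside 3312 of all 19938 genes. When Oct4 mGS 3 was left out 2 of the 9 were called in that comparison, with the share of all genes not given here. Leaving out the line labelled Dnmt mGS 2 kept the limma counts at 0 for Dmrt mGS, for Oct4 mGS and for iPS against ES. Of all 19938 genes, 59, 234 and 118 were then called. Of the 9 genes, 5, 0 and 1 had an unadjusted p under 0.05, with the share of all genes at that level not given here.

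Single lines departed from their groups in several of the 9 genes at once. Oct4 mGS 3 measured 1030 for Lifr, 1201 for Socs3, 1508 for Pim1, 1494 for Pim3 and 328 for Jak2. Oct4 mGS 1 and Oct4 mGS 2 measured 523 and 377 for Lifr, 797 and 754 for Socs3, 768 and 697 for Pim1, 706 and 658 for Pim3, and 692 and 644 for Jak2. Oct4 mGS 3 was thus high in 4 of these genes and low in Jak2. Its feeder score was 775, against 1628 and 1270, and its pluripotency score 2721, against 1447 and 1030. The line labelled Dnmt mGS 2 and Dmrt mGS 1 had the 2 lowest values of Socs3 (431 and 400) and Stat3 (985 and 896) of all 23 lines and the highest Pim1 of the pluripotent lines (1751 and 1810). They also had the lowest feeder scores of the pluripotent lines, 293 and 312. The part of feeder RNA in these differences was not tested beyond the covariate.

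Across the 20 pluripotent lines, which share the array type and the feeder removal and form 7 groups, the correlation with the feeder score was highest for Jak2 (Pearson r = 0.76, Spearman rho = 0.77) and Jak1 (r = 0.73, rho = 0.79). It was lowest for Pim1 (r = -0.79, rho = -0.82), Lifr (r = -0.59, rho = -0.53) and Pim3 (r = -0.57, rho = -0.61). Stat3 (r = 0.42), Il6st (r = 0.36), Socs1 (r = 0.36) and Socs3 (r = -0.13) lay between. Among pairs of the 9 genes over the same lines, Jak1 and Jak2 ran most closely together (r = 0.86), followed by Lifr and Pim3 (r = 0.76). Jak2 ran most strongly against Pim3 (r = -0.76) and Lifr (r = -0.74). Stat3 and Socs3 had r = 0.51 and rho = 0.28 over lines, and r = 0.79 once each group's mean was removed. These were 0.40, 0.16 and 0.68 without the line labelled Dnmt mGS 2. Over the same 19 lines the correlation with the feeder score was 0.83 for Jak2, 0.77 for Jak1, -0.76 for Pim1, -0.62 for Pim3, -0.60 for Lifr and -0.33 for Socs3.

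**Figure D4:**
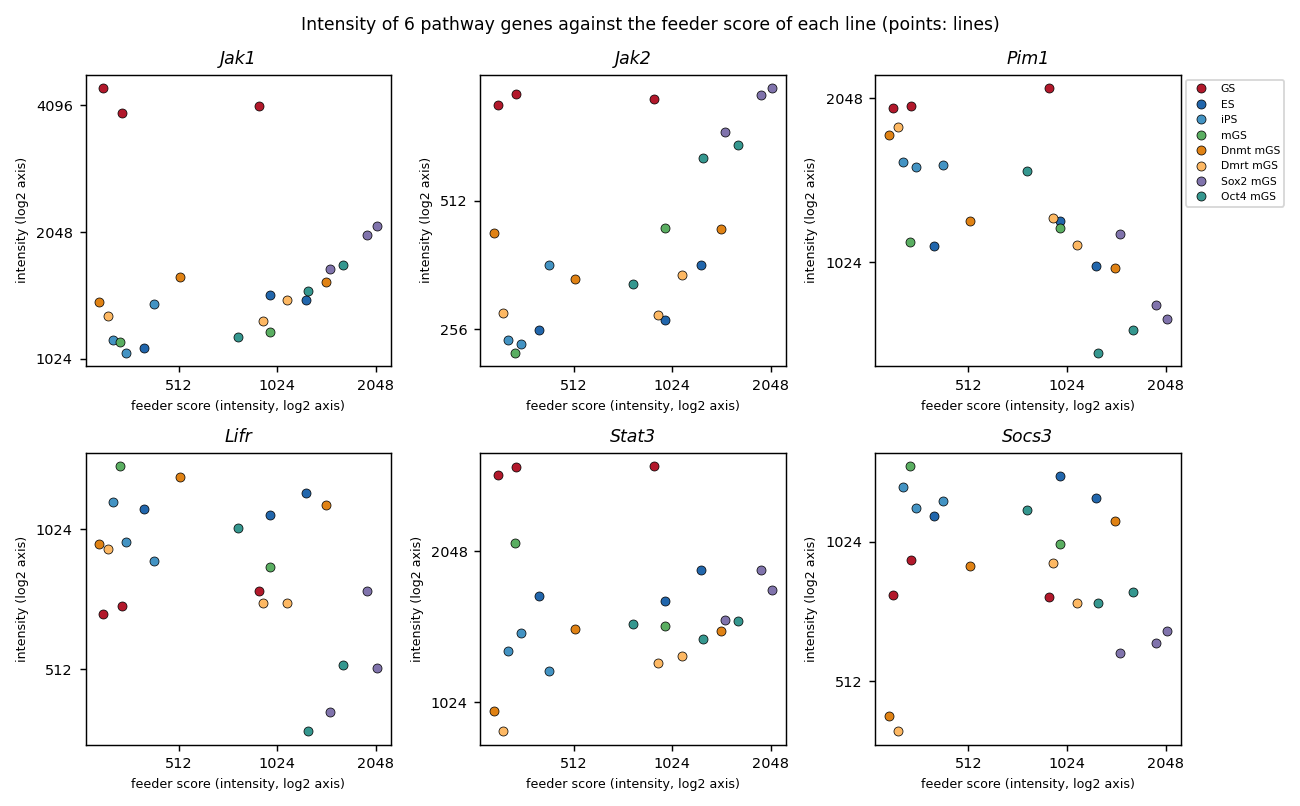
Intensity of 6 of the genes against the feeder score of each line (both axes log2; each point is a line, coloured by group). Jak1 and Jak2 rise and Pim1 falls along the feeder score among the pluripotent lines, and the GS points for Jak1 and Stat3 lie above all others at feeder scores of 301 to 900.

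The gene whose pattern over the 20 pluripotent lines was most like that of each of the 9 was taken from 12740 other genes above background, as a description. Lifr was most like Nr5a2 (r = 0.95) and Esrrb (r = 0.94), which encode orphan nuclear receptors of naive pluripotent cells. Jak2 was most like Cpd (r = 0.95) and Tank (r = 0.94), and Jak1 like Lgals8 (r = 0.94) and Fndc3b (r = 0.93). Il6st was most like Ampd3 (r = 0.92) and Tmem184b (r = 0.86). Pim1 was most like Tedc1 (r = 0.90) and Zbtb11 (r = 0.87), and Pim3 like Ssr2 and Pisd (both r = 0.87). Socs3 was most like Tfrc (r = 0.89), the transferrin receptor, and Sgk1 (r = 0.88), a kinase gene on the list of LIF and STAT3 targets. Stat3 was most like Wdr41 (r = 0.86) and Adamtsl1 (r = 0.81), and Socs1 like Rbm34 (r = 0.83) and Ift20 (r = 0.79). The 18 values without the line labelled Dnmt mGS 2 ran from 0.75 to 0.96, and none moved by more than 0.048.

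Other genes of the pathway were taken from lists of ligands, receptors, kinases and STATs, inhibitors and targets, with 57 of 65 measured. In GS against the mean of the pluripotent groups, 11 were higher, 25 lower and 21 not called, with a median log2 difference of -0.39, where 33.9% of all genes were higher and 21.5% lower. The counts were the same without the line labelled Dnmt mGS 2. Among the targets 13 of 23 were lower and 3 higher, with a median of -0.98. Klf5 fell by 3.09 on the log2 scale (350 in GS against 2983). Gbx2 (64 against 488) and Myc (133 against 720) were at least 3.03-fold and 4.47-fold lower, since their GS means were under the background level. The GS lines (96 to 227) overlapped pluripotent lines in Myc, which fell to 55 in Dnmt mGS and 70 in Dmrt mGS. Tfcp2l1 (446 against 1300, -1.54 ± 0.51, adjusted p = 0.016) and Klf4 (511 against 1221, -1.26 ± 0.34, adjusted p = 0.0043), both transcription factor genes of naive pluripotency, were lower too. In Klf4 the GS lines (400 to 774) overlapped Sox2 mGS (450 to 1266) and Oct4 mGS (475 to 1810). The iPS lines carried c-myc and Klf4 retroviruses, and whether the probe sets read these copies was not tested. The 3 targets that rose were Bcl6 (881 against 182, 4.83-fold), a transcriptional repressor known from germinal centre B cells, Zfp36 (2.01-fold) and Bcl2l1 (1.38-fold).

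**Figure D5:**
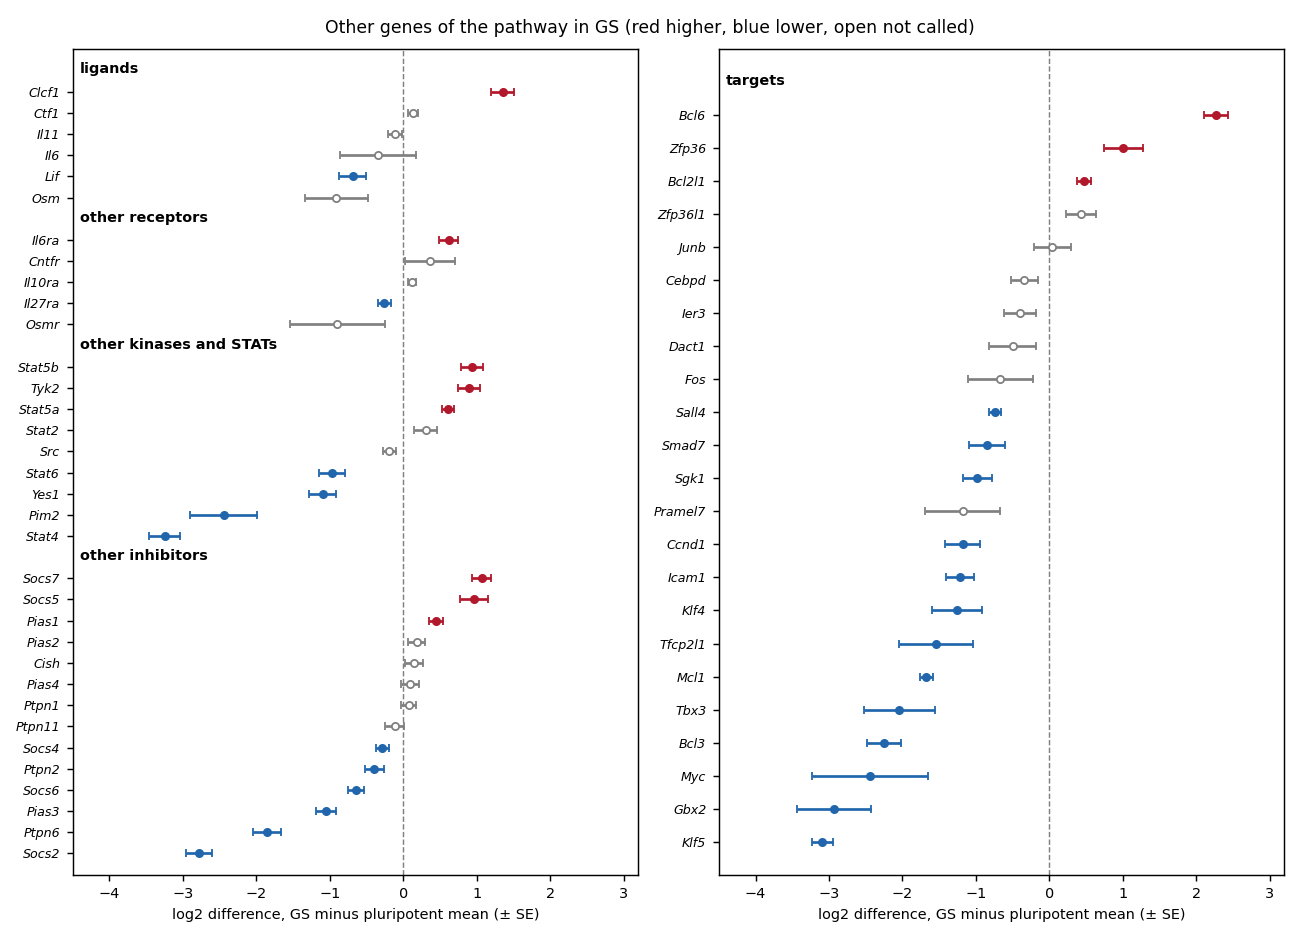
Log2 difference of GS from the mean of the 7 pluripotent groups (points, ± SE) for the 57 other genes of the pathway, by role. Most called targets lie left of 0, with Klf5 at -3.09, and Bcl6 lies furthest right at 2.27.

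The other roles were mixed. Of 6 ligands 1 was higher (Clcf1, a cardiotrophin-like cytokine, 503 against 197, 2.55-fold) and 1 lower (Lif itself, 84 against 136, both under the background level). Of 5 other receptors Il6ra was higher (1.53-fold) and Il27ra lower (1.19-fold). Among 9 other kinases and STATs, Stat5b (1.91-fold), Tyk2 (1.86-fold) and Stat5a (1.52-fold) were higher. Of the 4 that were lower, the furthest were Stat4 (at least 2.72-fold, 46 in GS against 439), Pim2 (271 against 1476, 5.45-fold), the third PIM kinase, and Yes1 (2.14-fold). GS thus had higher Pim1 but lower Pim2 and Pim3, with the same signs after quantile normalization and median centring. Of 14 other inhibitors 3 were higher (Socs7 2.10-fold, Socs5 1.96-fold and Pias1 1.36-fold) and 6 lower, among them Socs2 (411 against 2822, 6.87-fold), Ptpn6 (at least 3.55-fold) and Pias3 (2.07-fold). Within the SOCS family GS therefore had higher Socs1, Socs5 and Socs7 and lower Socs2, Socs4 and Socs6, again with the same signs under both scalings; Socs4 and Socs6 were named after their values were seen.

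In the induced routes against ES, iPS and mGS, 4 of the 57 were higher and 7 lower, where 15.0% of all genes were higher and 8.20% lower. The share called higher was thus below that of all genes, and the share called lower was above it. In either direction together the share was below the 23.2% of all genes. The 7 lower genes were all from the list of targets. Gbx2 was 2.28-fold lower (343 against 781, adjusted p = 0.030), Klf4 1.91-fold lower (925 against 1768, adjusted p = 0.013) and Sgk1 1.54-fold lower (adjusted p = 0.0061). Tfcp2l1 (-1.05 ± 0.38, adjusted p = 0.053) and Myc (-1.22 ± 0.59, adjusted p = 0.14) did not pass. The 4 higher genes were Stat5b, Stat5a, Pias1 and Socs4, by 1.16-fold to 1.24-fold. Without the line labelled Dnmt mGS 2, 10 of these 11 genes were still called, and Stat5b was not (0.31, adjusted p = 0.066). Lif itself was at 128 against 146, both under the background level.

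Sox2 mGS had 3 raised ligands of 6 against the other routes. Il6 measured 396 on average (306 to 467) against a mean of 58, under the background level, in the other routes, which is at least 2.46-fold (adjusted p = 0.0044). Lif measured 226 (199 to 253) against 106, at least 1.40-fold (adjusted p = 0.0022), and Il11 147 against 115, both under the background level. These are cytokines that fibroblasts also make, and Sox2 mGS had the highest mean feeder score, whose part in the difference was not tested. In all 10 of the 57 were higher and 5 lower there, beside 5.99% and 8.16% of all genes. Among the targets, Zfp36 (3.03-fold), Junb (2.79-fold) and Ier3 (1.99-fold) were higher, whereas Tfcp2l1 (340 against 1340, 3.94-fold) and Klf5 (log2 difference -0.59) were lower. Pim2 was higher (3.03-fold), and Stat2 (2.17-fold), Pias4 (1.60-fold) and Socs7 (1.37-fold) were lower. Without the line labelled Dnmt mGS 2, 12 of the 15 were still called, and Pim2 (1.48, adjusted p = 0.057), Smad7 (0.72, adjusted p = 0.051) and Socs7 (-0.40, adjusted p = 0.059) were not.

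Dnmt mGS also had 10 of the 57 higher and 5 lower than the other routes, beside 8.85% and 10.4% of all genes. Tfcp2l1 (3107 against 641, 4.85-fold, adjusted p = 0.011) and Tbx3 (2466 against 649, 3.80-fold) led the rises, with Pramel7 at least 3.51-fold. The lower genes included Pim2 (552 against 2505, 4.54-fold) and the early response genes Fos (3.16-fold), Junb (2.43-fold) and Zfp36 (2.16-fold). Osm was higher (at least 1.96-fold, adjusted p = 0.049), as were Stat2 (1.94-fold), Tyk2 (1.63-fold), Pias4 (1.51-fold) and Pias2 (1.34-fold). Without the line labelled Dnmt mGS 2, limma called 7 higher and 2 lower, while calls over all genes went from 3830 to 1488. Tfcp2l1 (2.25, adjusted p = 0.047), Stat2 (0.83, adjusted p = 0.020), Tyk2 (0.66, adjusted p = 0.046), Pias4 (0.58, adjusted p = 0.038) and Junb (-1.02, adjusted p = 0.0497) were then still called. Tbx3 (1.93, adjusted p = 0.067), Pramel7 (1.75, adjusted p = 0.11), Osm (1.02, adjusted p = 0.23), Pias2 (0.45, adjusted p = 0.072), Pim2 (-1.82, adjusted p = 0.057), Fos (-1.34, adjusted p = 0.14) and Zfp36 (-1.05, adjusted p = 0.067) were not, with 2 lines left in the group. In Dmrt mGS and Oct4 mGS limma called 0 of the 57, with 4 and 8 at an unadjusted p under 0.05. Over all 19938 genes, 2058 and 3312 had such an unadjusted p. Between iPS and ES 1 was called, the kinase gene Src (854 against 549, 1.56-fold, adjusted p = 0.014).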

How the data were processed

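The authors deposited a table of linear intensity for 28856 probe sets on 46 arrays; the sources used here do not give its scaling, and the submitters' processing notes name the build mm9. Probe sets with 1 gene symbol (21789) were kept, and 1621 with several and 5446 with none in the annotation were left out. The brightest probe set stood for each of 999 genes with more than 1, leaving 19938 genes. Values were taken as log2 with no offset, and the 2 cultures of a line were averaged. All 23 lines entered 1 limma fit (limma 3.58.1, R 4.3.3; lmFit and eBayes, 15 residual and 2.71 prior degrees of freedom), with Benjamini-Hochberg adjustment over all genes within a comparison at 0.05. The number of arrays limits the precision, and p-values reflect only how lines of 1 group vary, which the labels do not tie to separate animals. Group means are means of log2 values given as intensity, and intensities are not compared between probe sets. A fold against a group under 161 is the brighter mean over 161 and a lower bound. Promoters came from RefSeq (GRCm38.p6) and carry that build's positions, not mm9's. Scores are means of log2 intensity over listed markers. The 9 genes, the pathway and marker lists and the comparisons were chosen with earlier results of these data known. Of the pathway lists, the text names per role up to 3 genes highest and up to 3 lowest among those called, plus Lif, Klf4, Tfcp2l1, Gbx2 and Myc; for likeness, the 2 genes of highest r. The remaining genes of these lists are not reported here. Alternatives were other normalizations, filters, blocks and priors, a feeder covariate and each line left out; leaving out Sox2 mGS and Oct4 mGS together was chosen after seeing the data. The fit was tested on simulated data.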

Additional observations from a re-analysis of the deposited data

Results flagged for a closer look

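On 1 array, culture 2 of iPS 5, Pim3 measured 1086, below the other 5 iPS arrays, the nearest of which measured 1317. The gap was 0.633 of the group's range on the log2 scale. It was the only such array among 72 groups of arrays examined. Chance gives about 1 group in 20 if arrays are independent, so 1 in 72 is not more than chance gives. The 2 cultures of a line are not independent.

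4 differences between an induced route and the mean of the other 3 passed limma's test of that difference. Lifr was higher in Dnmt mGS by 0.85 on the log2 scale (adjusted p = 0.020). Jak2 was higher in Sox2 mGS by 1.11 (adjusted p = 0.0035), Jak1 by 0.44 (adjusted p = 0.020) and Stat3 by 0.41 (adjusted p = 0.041).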

How the results depend on the processing

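Over 36 or fewer alternatives per value, 4153 single-gene values kept their direction and their side of the threshold, 85 lost a call, 114 gained one, 58 uncalled values changed sign, and no called value reversed. In GS against the mean of the 7 groups, Jak1 (1.53 to 1.69) and Stat3 (1.00 to 1.12) kept their calls in all 36. Counts of the 9 genes that moved were as follows, and the cause was not tested. The shares of all genes called are not given beside them. Taking all 46 arrays as independent ignores that 2 cultures come from each line. With all 46 arrays as independent samples the count was 8 for GS against iPS, 7 for GS against Dmrt mGS, 2 for iPS against ES, 3 for Dnmt mGS, 3 for Dmrt mGS and 6 for Sox2 mGS, each against the remaining routes. With the line as a random block, and likewise with the culture number as a replicate block, it was 7 for GS against Dmrt mGS, 1 for iPS against ES and 2 for each of the Dnmt mGS and Dmrt mGS comparisons with other routes. With only the groups compared it was 8 for GS against iPS and 0 for Dnmt mGS. With the feeder score as a covariate it was 3 for GS against Sox2 mGS, 0 for Dnmt mGS, 1 for Sox2 mGS and 3 among the 7 groups. Quantile normalization gave 1 for Dmrt mGS. Without Sox2 mGS and Oct4 mGS it was 0 among the 7 groups. Leaving out each line in turn, the count ran from 6 to 7 for GS against the mean, 5 to 7 against ES, 4 to 6 against iPS, 3 to 7 against mGS (3 without either mGS line), 5 to 8 against Dnmt mGS, 4 to 6 against Dmrt mGS, 3 to 5 against Sox2 mGS (3 without GS 3 or Sox2 mGS 3) and 4 to 7 against Oct4 mGS. It was 0 throughout for iPS against ES, 0 to 2 for Dnmt mGS (0 without Dnmt mGS 1), 0 to 1 for Dmrt mGS, 1 to 3 for Sox2 mGS, 0 to 2 for Oct4 mGS, 4 to 7 for the 4 routes and 2 to 8 among the 7 groups (2 without Sox2 mGS 3). Line numbers did not pair the samples (correlations of same-numbered lines from -0.64 to 0.79), and with the line number as a replicate block the count was 7 for GS against the mean and 4 among the 7 groups, and no other count moved by over 1.5 times. All 9 genes were above background in every line, with Socs1 as low as 184 in Dmrt mGS 1 against the level of 161.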
